A study of Mus musculus with 15 samples.

Results

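The vessels of brain tumours were followed through 9 genes of pericytes and vascular smooth muscle, the mural cells that wrap blood vessels, in RNA from 15 mouse brain tumour libraries. The genes are known markers, listed by name (Pdgfrb, Rgs5, Abcc9, Vtn, Higd1b and Anpep for pericytes, Acta2, Tagln and Myh11 for smooth muscle), and make up 9 of the 24421 genes in the deposited tables. They were chosen with earlier results of these data known, so shares of all genes set beside them are not an independent comparison. Libraries came from tumour tissue of mice carrying 1 of 2 tumour models, EPN (ependymoma, a tumour with features of cells lining the ventricles) and HGG (high-grade glioma), with 3 libraries in each of 5 groups. The groups were EPN Sox9-GOF (gain of function of Sox9, which encodes a transcription factor active in developing glia and cartilage), EPN control, HGG Sox9-GOF, HGG Sox9-LOF (loss of function) and HGG control. Strain, age, the tumour-inducing alleles or agents, and how Sox9 was gained or lost are not given in the labels, nor is it said that replicates came from separate animals, so p-values measure only the spread between these libraries. Whole tissue was sequenced, so fewer cells of a type and less RNA per cell cannot be told apart.

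Pericytes sit in the basement membrane of capillaries and venules, and in the brain they help to form and keep the blood-brain barrier. Endothelial cells secrete PDGF-B, which binds the receptor PDGFR-beta on pericytes and draws them to growing vessels. Smooth muscle cells surround arteries and arterioles, and their contractile genes are driven by serum response factor together with myocardin through the CArG box, a DNA motif. Glioma and ependymoma cells, fibroblasts and immune cells can express some of the same genes, among them Pdgfrb, Vtn and Anpep.

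The promoters of Rgs5, Abcc9 and Acta2 are shown because Rgs5 and Abcc9 were both higher in EPN control than in HGG control libraries, and because Acta2 is a known target of serum response factor. RefSeq promoters (build GRCm38.p6, from 250 bases before to 50 bases after the start of transcription, 300 bases in all) were matched for 5 of the 9 genes, namely Rgs5, Abcc9, Vtn, Anpep and Acta2. Each is printed 5′ to 3′ on the strand of its gene. Capitals in the Acta2 promoter mark 2 CArG boxes with 1 mismatch each, which start 84 and 34 bases before the RefSeq start of transcription. The GENCODE annotation begins this gene upstream of both boxes, at 34255590 on the minus strand, so the distances hold for the RefSeq start only. Rgs5 lies on the plus strand at chr1:169655251-169655550, Abcc9 on the minus strand at chr6:142702225-142702524 and Acta2 on the minus strand at chr19:34255324-34255623.
Rgs5: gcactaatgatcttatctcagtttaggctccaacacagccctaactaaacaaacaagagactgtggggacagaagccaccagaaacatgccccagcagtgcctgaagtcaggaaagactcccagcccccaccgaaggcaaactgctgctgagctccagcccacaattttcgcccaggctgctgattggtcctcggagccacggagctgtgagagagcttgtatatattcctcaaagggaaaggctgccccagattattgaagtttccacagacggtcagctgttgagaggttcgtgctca
Abcc9: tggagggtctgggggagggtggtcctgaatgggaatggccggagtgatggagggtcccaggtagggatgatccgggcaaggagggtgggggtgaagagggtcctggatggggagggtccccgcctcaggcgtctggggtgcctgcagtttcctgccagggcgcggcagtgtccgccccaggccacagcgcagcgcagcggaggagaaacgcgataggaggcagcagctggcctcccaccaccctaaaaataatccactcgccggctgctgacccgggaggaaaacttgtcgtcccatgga
Acta2: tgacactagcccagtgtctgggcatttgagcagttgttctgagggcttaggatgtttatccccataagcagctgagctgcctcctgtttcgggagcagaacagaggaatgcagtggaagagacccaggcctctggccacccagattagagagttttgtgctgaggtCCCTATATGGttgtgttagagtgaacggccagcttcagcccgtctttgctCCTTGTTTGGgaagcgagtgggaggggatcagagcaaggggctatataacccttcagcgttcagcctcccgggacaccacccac
No exact CArG box was found in the 5 promoters on either strand, and of the 5 only Acta2 held one with 1 mismatch. Of 32851 promoters of this length, 1.63% held an exact box and 21.1% one with at most 1 mismatch. The SOX-type motifs ACAATG and ACAAAG, searched on both strands, were in none of the 5 promoters and in 28.6% of all promoters.

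The depth was 4665428 to 14119140 reads per library (median 10578708). Levels are given as rescaled counts, meaning reads put on 1 common scale for all 15 libraries. Sox9 itself was at 2055, 1834 and 2692 in EPN Sox9-GOF, against 1045, 1040 and 1189 in EPN control libraries. For HGG it was at 1275, 1537 and 1391 with Sox9-GOF and at 739, 579 and 395 with the Sox9-LOF label, against 218, 285 and 310 in HGG control libraries. All 3 libraries labelled Sox9-LOF thus held more Sox9 transcript than every HGG control library. The log2 fold change was 1.03 (SE 0.29, limma adjusted p = 0.184), and DESeq2 gave an adjusted p of 0.0323. In this comparison the groups did not overlap for 24.7% of all tested genes. How loss of function was made is not given, so these values do not show whether function was lost. The HGG control libraries also stood apart from each other. Their pairwise correlation over genes was 0.946 to 0.959, compared with 0.974 to 0.986 within the other groups. HGG control 1 had a summed count of 112249 over 14 choroid plexus genes, HGG control 2 had 28616 over 18 fibroblast genes, and HGG control 3 had 4875 over 14 lymphocyte genes.

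Among the 9 genes, Pdgfrb had the largest fold between the models. Pdgfrb encodes the receptor for PDGF-B (ENSMUSG00000024620.11, chromosome 18, 61045150 to 61085061 in mm10, plus strand). Its rescaled counts were 2919, 2001 and 2577 in EPN Sox9-GOF libraries, against 117.7, 128.4 and 229.7 in HGG Sox9-GOF libraries. In the controls they were 3094, 3096 and 2545 for EPN, against 146.0, 147.6 and 242.2 for HGG. The libraries labelled Sox9-LOF gave 178.9, 109.0 and 146.9. Every EPN library was thus above every HGG library, and the lowest EPN value, 2001, stood far above the highest HGG value, 242.2. Pdgfrb was 16.2-fold higher in EPN Sox9-GOF than in HGG Sox9-GOF, a log2 fold change of 4.02 (SE 0.29, limma adjusted p = 0.000124). Between the controls it was 16.6-fold higher in EPN (log2 fold change 4.06, SE 0.25, limma adjusted p = 0.0011). These are separate sets of 6 libraries, and leaving out any single library moved the 2 log2 values only within 3.84 to 4.32 and 3.93 to 4.29.

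**Figure D1:**
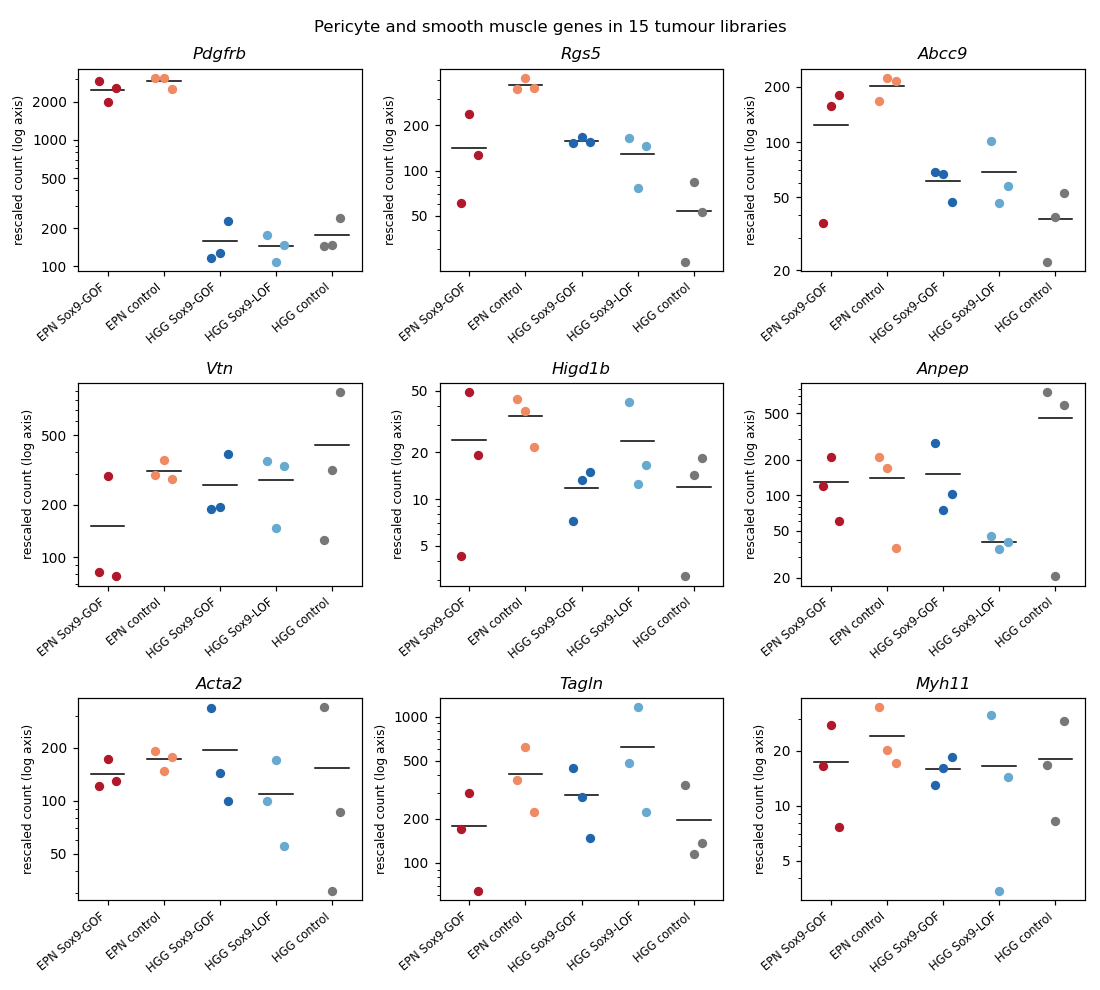
Rescaled counts (log axes) of the 9 genes in the 5 groups; each point is 1 library and each bar the mean of 3. Pdgfrb splits the EPN libraries (2001 to 3096) from the HGG libraries (109.0 to 242.2), whereas the 5 groups overlap for the 3 smooth muscle genes.

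Pdgfrb was not called with gain of Sox9 in either model. Its mean was 2499 ± 464 in EPN Sox9-GOF and 2912 ± 317 in EPN control libraries (SD, n = 3 each), a log2 fold change of -0.19 (SE 0.19, limma adjusted p = 0.71). In HGG the mean was 158.6 ± 61.8 with Sox9-GOF and 178.6 ± 55.1 in control libraries (SD, n = 3 each), a log2 fold change of -0.17 (SE 0.36, limma adjusted p = 0.817). The libraries labelled Sox9-LOF averaged 144.9 ± 35.0, with a log2 fold change of -0.29 (SE 0.32, limma adjusted p = 0.663). In all 3 comparisons the groups overlapped. The difference between the 2 Sox9-GOF effects was -0.04 (SE 0.40, limma adjusted p = 0.964).

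The ligands of this receptor were read next. Pdgfb, which encodes the PDGF-B chain, had 2023, 2138 and 1992 rescaled counts in EPN Sox9-GOF libraries, against 195.2, 133.6 and 227.1 in HGG Sox9-GOF libraries. In EPN control libraries it had 2133, 1610 and 1313, against 253.2, 149.7 and 425.4 in HGG control libraries. The ligand was thus higher in every EPN library than in every HGG library, as its receptor was. The fold was 11.3 between the Sox9-GOF groups (log2 fold change 3.49, SE 0.23, limma adjusted p = 0.000104) and 6.52 between the controls (log2 fold change 2.70, SE 0.40, limma adjusted p = 0.0103). The call between the controls was lost without EPN control 1 (limma adjusted p = 0.0524) and without EPN control 2 (limma adjusted p = 0.0581). Pdgfd, a second ligand of the same receptor, stayed between 6.15 and 73.1 rescaled counts in all 15 libraries. Its log2 fold change was -0.07 (SE 0.56, limma adjusted p = 0.937) between the Sox9-GOF groups and 2.00 (SE 0.65, limma adjusted p = 0.0859) between the controls.

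Rgs5 and Abcc9, genes typical of brain pericytes, differed between the models in the controls. Rgs5 encodes a regulator that shortens G-protein signalling (ENSMUSG00000026678.10, chromosome 1, 169655501 to 169695813, plus strand). It had 349.6, 415.9 and 357.8 rescaled counts in EPN control libraries, against 24.6, 84.1 and 52.6 in HGG control libraries. Abcc9 encodes the sulfonylurea receptor subunit of a potassium channel that pairs with the pore encoded by Kcnj8 (ENSMUSG00000030249.15, chromosome 6, 142587862 to 142702315, minus strand). It had 168.0, 224.3 and 214.7 rescaled counts in EPN control libraries, against 22.2, 39.0 and 52.6 in HGG control libraries. For both genes the control groups were far apart. Rgs5 was 7.66-fold higher in EPN control libraries (log2 fold change 2.94, SE 0.45, limma adjusted p = 0.0112) and Abcc9 5.49-fold higher (log2 fold change 2.46, SE 0.38, limma adjusted p = 0.0114). These calls were not firm. Leaving out EPN control 1, 2 or 3 gave limma adjusted p = 0.0543, 0.0658 and 0.0523 for Rgs5 and 0.0504, 0.0713 and 0.0582 for Abcc9, with log2 fold changes of at least 2.86 and 2.38 in those fits.

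Over the whole set, 3 of the 9 genes (Pdgfrb, Rgs5 and Abcc9) passed limma between the controls, all 3 higher in EPN, where 15.3% of 15105 tested genes passed in either direction (9.51% as higher and 5.83% as lower in EPN). The same count of 3 was given by edgeR and by DESeq2, which called 29.1% of all genes, and the 3 calls held without each HGG control library. Groups did not overlap for 4 of the 9 genes (these 3 and Higd1b), against 40.3% of all tested genes. The median log2 fold change of the 9 was 1.08, and of all tested genes 0.00. Between the Sox9-GOF groups, 1 of 9 passed limma (Pdgfrb), where 40.7% of 14964 genes passed in either direction (19.6% as higher and 21.2% as lower in EPN). There the groups did not overlap for 1 of the 9, against 55% of all tested genes, and the median was -0.16 for the 9 and 0.04 for all. These comparisons and those within each model share libraries, so their values are set side by side and not counted as separate evidence. With 3 libraries against 3, an exact two-sided permutation test on 1 gene cannot go below p = 0.1, the value it gave for each gene whose groups did not overlap.

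**Figure D2:**
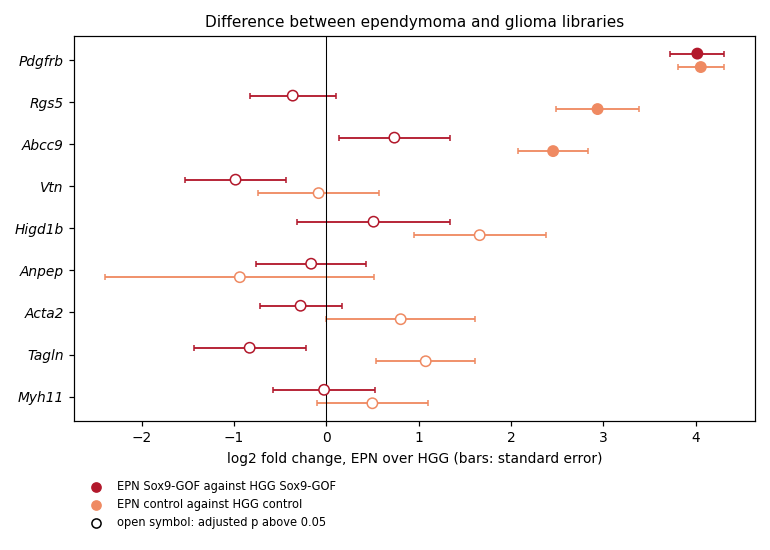
Log2 fold change of EPN over HGG for each of the 9 genes, for Sox9-GOF libraries (upper symbol, red) and control libraries (lower symbol, orange); bars are standard errors, n = 3 per group, and filled symbols have a limma adjusted p of at most 0.05. Pdgfrb lies at 4.02 and 4.06 in the 2 comparisons, while Rgs5 lies at -0.36 between the Sox9-GOF groups and at 2.94 between the controls.

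Rgs5 differed in opposite directions with gain of Sox9 in the 2 models. In EPN it had 60.6, 238.9 and 127.7 rescaled counts with Sox9-GOF, against 349.6, 415.9 and 357.8 in control libraries. In HGG it had 153.6, 167.3 and 154.3 with Sox9-GOF, against 24.6, 84.1 and 52.6 in control libraries. All EPN Sox9-GOF libraries were thus below all EPN control libraries, and all HGG Sox9-GOF libraries above all HGG control libraries. Groups did not overlap, in either direction, for 21.1% of all tested genes in EPN and 30.7% in HGG. The log2 fold change was -1.55 (SE 0.45, limma adjusted p = 0.187) in EPN and 1.73 (SE 0.47, limma adjusted p = 0.103) in HGG, so neither passed limma by itself. DESeq2 called the HGG difference (adjusted p = 0.0137), as did limma with the spread shared by all 15 libraries (adjusted p = 0.0352), while edgeR did not (adjusted p = 0.119). The libraries labelled Sox9-LOF had 164.8, 76.1 and 145.8, which overlapped the HGG control libraries (log2 fold change 1.33, SE 0.54, limma adjusted p = 0.28). Of 20 other pericyte genes, 9 were positive and 11 negative in HGG Sox9-GOF against control (median -0.23). DESeq2 called 4 of them, all lower, where it called 15% of all genes. In EPN Sox9-GOF against control, 5 were positive and 14 negative of 19 tested (median -0.35). There DESeq2 called 1 higher and 2 lower, against 5.77% of all genes.

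The difference between the 2 Sox9-GOF effects on Rgs5, EPN minus HGG, was -3.30 on the log2 scale (SE 0.70, limma adjusted p = 0.0269). It was the only one of the 9 genes called, where 6.1% of 15088 tested genes passed in either direction (2.63% as higher and 3.47% as lower). By edgeR the value was -3.00 (adjusted p = 0.0355) and by DESeq2 -2.98 (adjusted p = 0.000818). The call was not firm. In the 12 fits that each left out 1 library, the value stayed between -3.78 and -2.80 with limma adjusted p of 0.0225 to 0.0704, and the call was lost without EPN Sox9-GOF 3 and without each of the EPN control and HGG Sox9-GOF libraries. With Sox9-GOF, Rgs5 averaged 142 ± 90.1 in EPN and 158 ± 7.72 in HGG (SD, n = 3 each), and the log2 fold change between the models was -0.36 (SE 0.47, limma adjusted p = 0.564). For the difference of effects, 0 of 20 other pericyte genes passed limma, with 8 positive and 12 negative (median -0.41). DESeq2 called 1 of these higher and 1 lower, where it called 16.4% of all genes.

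Markers of other cells differed alongside Rgs5. In EPN Sox9-GOF against EPN control, 0 of 20 endothelial genes were positive (median log2 fold change -0.58), 0 of 12 astrocyte genes (median -1.21) and 0 of 15 neuron genes (median -2.25). In HGG Sox9-GOF against HGG control, 6 of 20 endothelial genes were positive (median -0.34), 11 of 12 astrocyte genes (median 0.99) and 12 of 15 neuron genes (median 0.84). No gene of these 3 lists passed limma or edgeR in either comparison. At an unadjusted p under 0.05 there were 8 endothelial, 10 astrocyte and 14 neuron genes, all lower, in EPN Sox9-GOF, where DESeq2 called 3, 5 and 12. Of all tested genes 10.7% were lower at that p in EPN Sox9-GOF, and DESeq2 called 5.77% in either direction. In HGG Sox9-GOF there were 2 endothelial genes lower, 0 astrocyte genes and 2 neuron genes higher, where DESeq2 called 2, 0 and 1, against 22.7% of all genes at that p and 15% by DESeq2. Fibroblast genes were negative for 13 of 15 in EPN Sox9-GOF (median -0.85) and positive for 9 of 15 in HGG Sox9-GOF (median 0.43). Microglia and macrophage genes were negative for 16 of 17 in EPN Sox9-GOF (median -0.39) and positive for 16 of 17 in HGG Sox9-GOF (median 0.73). Over the 15 libraries the deviations of Rgs5 had a Pearson r of 0.73 with the fibroblast list, 0.65 with the endothelial list and 0.62 with the astrocyte list. The r was 0.34 with the neuron list and 0.28 with the microglia and macrophage list. The part of these cells in the Rgs5 difference was not tested.

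Rgs5 was also measured relative to endothelial genes. The ratio of Rgs5 counts to those of Cdh5, an endothelial cadherin gene, was 0.119, 0.519 and 0.315 in EPN Sox9-GOF libraries, against 0.692, 0.682 and 0.542 in EPN control libraries. In HGG it was 1.80, 2.53 and 2.20 with Sox9-GOF, against 0.356, 0.976 and 0.383 in control libraries. On this ratio the groups did not overlap in either model. Relative to Pecam1, another endothelial gene, the ratio was 0.131, 0.513 and 0.418 in EPN Sox9-GOF, against 0.801, 0.646 and 0.607 in EPN control, and 0.718, 1.95 and 1.63 in HGG Sox9-GOF, against 0.112, 0.719 and 0.185 in HGG control. On that measure the EPN groups were apart and the HGG groups just touched.

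Abcc9 had the same signs as Rgs5 in both models without passing. It had 36.1, 157.0 and 180.5 rescaled counts in EPN Sox9-GOF libraries, where EPN Sox9-GOF 1 stood well below the other 2 libraries. In HGG it had 68.9, 66.8 and 47.4 with Sox9-GOF and 101.7, 46.5 and 57.9 with the Sox9-LOF label. Set against the control of its model, Abcc9 had a log2 fold change of -0.94 (SE 0.58, limma adjusted p = 0.511) in EPN Sox9-GOF, 0.76 (SE 0.43, limma adjusted p = 0.343) in HGG Sox9-GOF and 0.84 (SE 0.48, limma adjusted p = 0.418) with the Sox9-LOF label. The difference between the 2 Sox9-GOF effects was -1.72 (SE 0.77, limma adjusted p = 0.181). Between the models with Sox9-GOF the log2 fold change was 0.74 (SE 0.60, limma adjusted p = 0.363). Without EPN Sox9-GOF 1 it was 1.47 and passed (limma adjusted p = 0.0146).

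**Figure D3:**
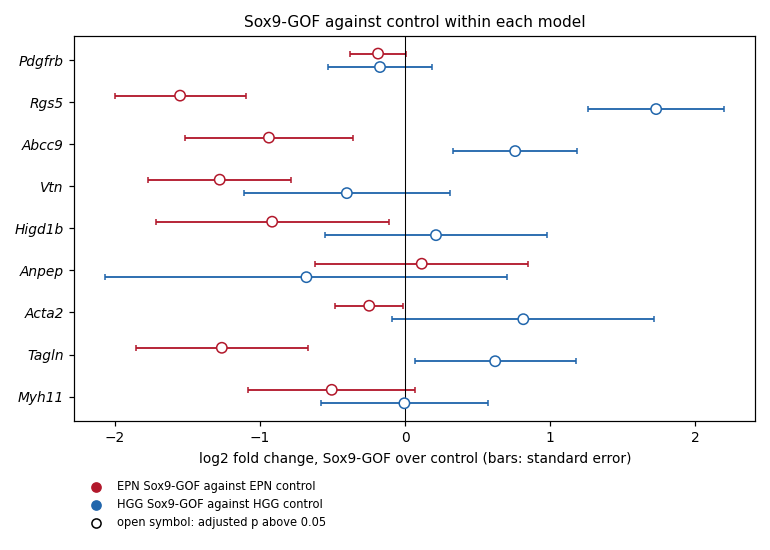
Log2 fold change of Sox9-GOF over control for each of the 9 genes in EPN (upper symbol, red) and HGG (lower symbol, blue); bars are standard errors, n = 3 per group, and open symbols have a limma adjusted p above 0.05. Rgs5 lies at -1.55 in EPN and 1.73 in HGG, and Pdgfrb near 0 in both.

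Higd1b, a mitochondrial protein gene used as a pericyte marker (ENSMUSG00000020928.14, chromosome 11, 102835849 to 102838040, plus strand), was low throughout. It had 4 to 56 reads per library, which limits its precision. Its rescaled counts were 4.33, 48.8 and 19.2 in EPN Sox9-GOF, 44.4, 37.2 and 21.8 in EPN control, 7.18, 13.2 and 14.9 in HGG Sox9-GOF, 42.1, 12.5 and 16.7 in the libraries labelled Sox9-LOF and 3.17, 14.4 and 18.5 in HGG control. All EPN control libraries were above all HGG control libraries, and the other comparisons overlapped. The log2 fold change between the controls was 1.66 (SE 0.71, limma adjusted p = 0.16).

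Vtn encodes vitronectin, an adhesion protein of plasma and matrix that brain pericytes also make (ENSMUSG00000017344.4, chromosome 11, 78499091 to 78502324, plus strand). Its rescaled counts were 82.2, 290.4 and 77.8 in EPN Sox9-GOF, against 294.7, 358.4 and 280.0 in EPN control. HGG gave 189.5, 195.2 and 392.8 with Sox9-GOF and 355.4, 146.4 and 332.8 with the Sox9-LOF label, against 126.2, 315.7 and 879.9 in control libraries. EPN Sox9-GOF libraries 1 and 3 were the lowest of all 15 and HGG control 3 the highest. In EPN the log2 fold change with Sox9-GOF was -1.28 (SE 0.49, limma adjusted p = 0.285). No comparison of Vtn passed over all its libraries, and the models differed with Sox9-GOF only when EPN Sox9-GOF 2 was left out (log2 fold change -1.60, limma adjusted p = 0.0199, against -0.98 and 0.193 with all 6 libraries). Across the 15 libraries, the deviation of Vtn from its group mean followed that of the endothelial list (Pearson r = 0.87) and the astrocyte list (r = 0.80). It also followed the neuron list (r = 0.75), the microglia and macrophage list (r = 0.68) and the fibroblast list (r = 0.56). This is a description over libraries that share depth and tissue content.

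Anpep encodes aminopeptidase N, a surface peptidase of pericytes and of myeloid cells (ENSMUSG00000039062.15, chromosome 7, 79821803 to 79861059, minus strand). It had the widest range of the 9 genes, 36.6-fold from the lowest to the highest library, and both ends were HGG controls. Its rescaled counts were 119.7, 211.9 and 60.5 in EPN Sox9-GOF, against 213.4, 172.4 and 35.8 in EPN control. In HGG they were 276.3, 75.6 and 103.5 with Sox9-GOF and 45.6, 35.2 and 40.1 with the Sox9-LOF label, against 750.8, 20.5 and 590.8 in control libraries. The libraries labelled Sox9-LOF were thus close together and below all HGG Sox9-GOF libraries, while the HGG control libraries fell on both sides of them. Anpep was -2.38 (SE 1.301, limma adjusted p = 0.397) on the log2 scale in the libraries labelled Sox9-LOF against HGG control. DESeq2 called this difference (log2 fold change -3.50, adjusted p = 0.00911), and limma did so without HGG control 2 (-4.02, adjusted p = 0.0414). HGG Sox9-GOF against the libraries labelled Sox9-LOF gave 1.67 (SE 0.47, limma adjusted p = 0.62), and DESeq2 an adjusted p of 0.043.

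The HGG control libraries with high Anpep also held the most lymphocyte transcript. The summed count of 14 lymphocyte genes was 2638, 53.3 and 4875 in HGG control libraries 1, 2 and 3, and none of the 14 was at 0 in all 3. It was 800, 247 and 858 in HGG Sox9-GOF and 119, 89.7 and 563 with the Sox9-LOF label. In EPN it was 2510, 1455 and 141 with Sox9-GOF, against 444, 612 and 1140 in control libraries. Over the 15 libraries the deviations of Anpep and of this list had a Pearson r of 0.83, and those of Anpep and of 17 microglia and macrophage genes an r of 0.62. Their part in the Anpep values was not tested.

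The 3 smooth muscle genes gave no call in any comparison by limma, edgeR or DESeq2, and none had an unadjusted limma p under 0.05. Acta2 encodes the smooth muscle actin of arteries and of activated fibroblasts (ENSMUSG00000035783.9, chromosome 19, 34241090 to 34255590, minus strand). Its rescaled counts were 121.1, 171.8 and 129.6 in EPN Sox9-GOF, against 190.1, 147.6 and 177.4 in EPN control. In HGG they were 336.6, 143.1 and 99.97 with Sox9-GOF and 99.4, 170.3 and 55.6 with the Sox9-LOF label, against 339.7, 30.8 and 86.6 in control libraries. EPN libraries were close together, while HGG libraries ran over an 11.05-fold range with HGG control 2 and HGG control 1 at its ends. Acta2 has close paralogs (Actg2, Acta1 and Actc1), which had at most 81.7 rescaled counts in any library, and how reads shared between them were counted is not given in the sources used here.

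Tagln encodes transgelin, an actin-binding protein of smooth muscle (ENSMUSG00000032085.5, chromosome 9, 45929619 to 45936058, minus strand). It had 171.6, 299.1 and 64.3 rescaled counts in EPN Sox9-GOF, against 366.5, 624.4 and 222.5 in EPN control. In HGG it had 442.9, 284.0 and 149.1 with Sox9-GOF and 480.5, 1167 and 221.5 with the Sox9-LOF label, against 341.3, 114.8 and 137.1 in control libraries. The highest library, labelled Sox9-LOF 2, was 18.1 times the lowest, EPN Sox9-GOF 3, and the groups of every comparison overlapped. The log2 fold change was -1.26 (SE 0.59, limma adjusted p = 0.374) in EPN Sox9-GOF and 1.50 (SE 0.68, limma adjusted p = 0.324) with the Sox9-LOF label, each against its control. Exons of Tagln overlap those of Pcsk7 on the other strand. Pcsk7 had 287.6 to 485.7 rescaled counts, and without a stated strand setting of the counting, part of the Tagln reads is uncertain.

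Myh11, the smooth muscle myosin heavy chain and the most specific of the 3 (ENSMUSG00000018830.10, chromosome 16, 14194535 to 14291372, minus strand), was close to the limit of detection. It had 3 to 41 reads per library. Its rescaled counts were 16.6, 27.9 and 7.68 in EPN Sox9-GOF, against 34.9, 20.3 and 17.1 in EPN control, and ran from 3.41 to 31.6 in the 9 HGG libraries. The groups of every comparison overlapped. Between the controls the log2 fold change of EPN over HGG was 0.50 (SE 0.60, limma adjusted p = 0.599).

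Within each model, then, 0 of the 9 genes passed limma or edgeR against the control of the same model, where 0% of all tested genes passed limma as well. At an unadjusted p under 0.05 there were 2 of 9 in EPN Sox9-GOF (Rgs5 and Vtn), 1 of 9 in HGG Sox9-GOF (Rgs5) and 1 of 9 with the Sox9-LOF label (Rgs5), against 15.1%, 22.7% and 17.3% of all tested genes, so these counts were near or below the background. DESeq2 called 0, 1 (Rgs5) and 1 (Anpep), where it called 5.77%, 15% and 9.01% of all tested genes. Groups did not overlap for 1 of 9 in EPN Sox9-GOF, 1 of 9 in HGG Sox9-GOF and 0 of 9 with the Sox9-LOF label, against 21.1%, 30.7% and 24.7% of all tested genes. In EPN Sox9-GOF, 8 of the 9 genes had a negative log2 fold change (median -0.91, against 0.04 over all tested genes). HGG Sox9-GOF had 4 of 9 negative (median 0.21, against 0.03 over all), and the Sox9-LOF label 4 of 9 (median 0.01, against 0.01). Directly between HGG Sox9-GOF and the libraries labelled Sox9-LOF, 0 of 9 genes passed limma or edgeR and 1 of 9 (Anpep) had an unadjusted p under 0.05. DESeq2 called that gene, where it called 0.935% of all genes, and Anpep was the 1 gene of 9 whose groups did not overlap, against 13.6% of all genes.

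Levels were compared between the 9 genes per kilobase of exon. In both EPN groups Pdgfrb ranked first, at 456 ± 84.7 rescaled counts per kilobase with Sox9-GOF and 532 ± 57.9 in control libraries (SD, n = 3 each). It ranked 6, 6 and 5 of 9 in HGG Sox9-GOF, HGG labelled Sox9-LOF and HGG control, at 29.0 ± 11.3, 26.5 ± 6.39 and 32.6 ± 10.05 (SD, n = 3 each). Tagln led in HGG Sox9-GOF (147 ± 74.0) and with the Sox9-LOF label (313 ± 246), and Vtn in HGG control (217 ± 193), each with a spread between libraries that its neighbours in the order fell within. Abcc9 ranked 8 and Myh11 last in all 5 groups, Myh11 between 2.08 and 3.17 rescaled counts per kilobase on average.

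Among the 6 pericyte genes, Pdgfrb thus dominated the summed counts in EPN only. Its share of the summed rescaled counts of the 6 pericyte genes was 90.6%, 67.9% and 84.7% in EPN Sox9-GOF and 74.3%, 71.9% and 73.7% in EPN control. In HGG it was 14.5%, 19.9% and 24.4% with Sox9-GOF, 20.1%, 25.6% and 19.8% with the Sox9-LOF label and 13.6%, 23.8% and 13.2% in control libraries. The lowest EPN share was thus well above the highest HGG share. This bears on the ratio of pericyte to endothelial transcript. Summed over all 6 pericyte genes and divided by the sum of 20 endothelial genes, the ratio was 0.585, 0.378 and 0.760 in EPN Sox9-GOF, against 0.227, 0.277 and 0.330 in HGG Sox9-GOF. Without Pdgfrb it was 0.0550, 0.121 and 0.116 in EPN Sox9-GOF, against 0.194, 0.222 and 0.249 in HGG Sox9-GOF. The log2 difference was 1.01 with Pdgfrb and -1.26 without it, a choice made after the values were seen. The direction also turned with Pdgfrb kept and Cdh5 alone as the endothelial gene (-0.68), and over Pecam1 alone the difference was 0.21.

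Between the controls the same ratio was 0.518, 0.476 and 0.388 in EPN, against 0.489, 0.163 and 0.371 in HGG, so the groups overlapped. Without Pdgfrb it was 0.133, 0.134 and 0.102 in EPN control, against 0.422, 0.124 and 0.322 in HGG control. In the libraries labelled Sox9-LOF it was 0.191, 0.101 and 0.152 without Pdgfrb. The ratio of the 3 smooth muscle genes to the endothelial genes was 0.0562, 0.0639 and 0.0504 in EPN Sox9-GOF, against 0.221, 0.190 and 0.0936 in HGG Sox9-GOF. It was 0.0737, 0.0876 and 0.0469 in EPN control, against 0.318, 0.0403 and 0.0511 in HGG control. For these 3 genes the ratio was lower in every EPN Sox9-GOF library than in every HGG Sox9-GOF library, whereas the controls overlapped. It was not formed for other contractile genes, so it does not stand for them. Their summed count over 20 genes is another measure, as it was not divided by endothelial genes. That sum was 15377, 10862 and 14880 in EPN Sox9-GOF, against 4167, 3926 and 3281 in HGG Sox9-GOF. Its highest genes were Tpm1 (4567, 5150 and 5634, against 2432, 1857 and 1695) and Cald1 (7248, 3376 and 5422, against 697.7, 968.0 and 566.5). The endothelial sums were also higher in every EPN Sox9-GOF library, at 5507, 7807 and 4004, against 3585, 2335 and 2859.

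**Figure D4:**
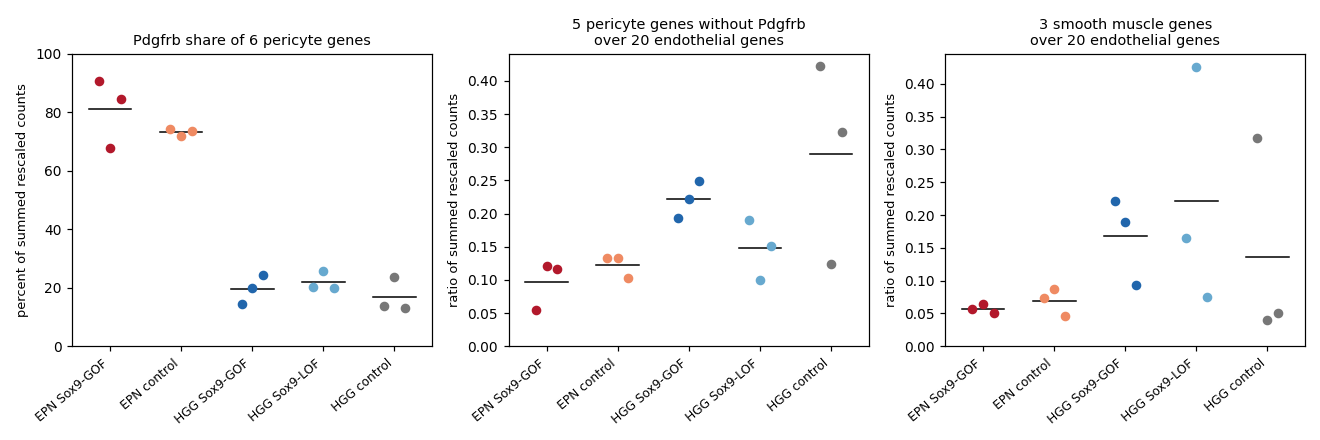
Share of Pdgfrb in the summed rescaled counts of 6 pericyte genes (percent, left), and ratio of the other 5 pericyte genes (middle) and of the 3 smooth muscle genes (right) to 20 endothelial genes; points are libraries and bars the means of 3. The Pdgfrb share lies between 67.9% and 90.6% in the 6 EPN libraries and between 13.2% and 25.6% in the 9 HGG libraries.

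Further genes of pericytes, contraction and vessel recruitment were read from lists chosen with earlier results of these data known. Of 20 other pericyte genes, 6 were called higher in EPN control than in HGG control and 0 lower by limma, where 9.51% of all genes were called higher, with 17 of 20 positive (median log2 fold change 0.97). DESeq2 called 6 higher and 2 lower (Art3 and Cspg4), where it called 29.1% of all genes in either direction. The 6 called by limma were Lamc3, a laminin chain (4.85, SE 0.66, limma adjusted p = 0.00838), the transcription factors Tbx18 (3.28, SE 0.59, limma adjusted p = 0.0175) and Foxc1, the endothelin receptor gene Ednra (2.11, SE 0.41, limma adjusted p = 0.0212), and Kcnj8 and Gper1. Kcnj8, the pore subunit that pairs with Abcc9, was 2.40 (SE 0.54, limma adjusted p = 0.0319), near the 2.46 of Abcc9. Between the Sox9-GOF groups, 6 of 20 were called higher in EPN (Gper1, Foxc1, Mcam, Lamc3, Cd248 and Ndufa4l2) and 2 lower, where 19.6% of all genes were called higher and 21.2% lower. The 2 lower genes were Cspg4, which encodes the NG2 proteoglycan of pericytes and of oligodendrocyte precursors (-2.23, SE 0.43, limma adjusted p = 0.00521), and Atp13a5 (-2.55, SE 0.68, limma adjusted p = 0.0195).

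Of the 20 other contractile genes, 16 passed the minimum mean between the controls, and 3 were called higher in EPN, namely Itga8, Cald1 and Mylk (median of the 16 tested 0.73, with 9.51% of all genes called higher). Of 12 tested between the Sox9-GOF groups, 7 were called higher in EPN (19.6% of all genes), among them Itga8, an integrin chain (4.28, SE 0.43, limma adjusted p = 0.000343), Cald1, the actin-binding caldesmon (2.81, SE 0.32, limma adjusted p = 0.000543), and Srf, the factor that binds CArG boxes (0.98, SE 0.16, limma adjusted p = 0.00263). Myocd, the myocardin gene, was at 0 in all EPN libraries. Many of these genes are not specific to smooth muscle. Beside them, the summed count of 19 striated muscle genes was 7573, 6638 and 4745 in EPN Sox9-GOF and 3857, 3902 and 5097 in EPN control, against 361, 301 and 276 in HGG Sox9-GOF and 283, 757 and 540 in HGG control. Most of the EPN sum was Tnnt3, a troponin gene, at 7359, 6035 and 4318 in EPN Sox9-GOF and 3421, 3668 and 4622 in EPN control, against at most 4.26 in any HGG library. Of 11 tested between the controls, 2 were called higher in EPN (Tnnt3 and Ttn) and 3 lower (Myh3, Myh6 and Myh7) (median -0.98), where 9.51% and 5.83% of all genes were. Of 10 tested between the Sox9-GOF groups, 3 were called higher and 3 lower (median -1.40), where 19.6% and 21.2% of all genes were. Their part in the contractile genes was not tested.

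Of 20 recruitment genes, 7 were called higher in EPN control than in HGG control (9.51% of all genes), including Pdgfb, the ligand gene Tgfb3 (3.08, SE 0.24, limma adjusted p = 0.00226) and the receptor gene Tgfbr1 (1.71, SE 0.19, limma adjusted p = 0.00521). Angpt1, the angiopoietin that mural cells send to the endothelial receptor Tek, was also called by limma (1.95, SE 0.47, adjusted p = 0.0393) and by DESeq2, but not by edgeR, which called the other 6. Between the Sox9-GOF groups, limma called 9 recruitment genes higher in EPN and 2 lower (S1pr1 and Tgfb2), where 19.6% and 21.2% of all genes were. The Sox9-GOF effects on Tgfbr1 and Angpt1 differed between the models, by -1.81 (limma adjusted p = 0.023) and -2.80 (limma adjusted p = 0.0313), in the direction seen for Rgs5. Only these 2 of the 20 recruitment genes passed limma for this difference, where 3.47% of all genes were called lower and 2.63% higher. The list as a whole was split, with 10 genes positive and 10 negative (median -0.03). DESeq2 called 1 of the 20 higher and 3 lower, where it called 16.4% of all genes in either direction. Of 20 endothelial genes, 9 were called higher in EPN control (9.51% of all genes) and 20 of 20 were positive (median 1.50), for example Cdh5 (2.64, SE 0.30, limma adjusted p = 0.00555) and Emcn (2.48, SE 0.30, limma adjusted p = 0.00632). Between the Sox9-GOF groups, 12 of the 20 endothelial genes were called higher in EPN and 1 lower (Mfsd2a), where 19.6% and 21.2% of all genes were. Fibroblasts express Pdgfrb, and some of their genes differed between the models as it did. Of 15 tested, 4 were called higher in EPN control (Ogn, Lum, Col1a1 and Twist1) and 0 lower, where 9.51% and 5.83% of all genes were. DESeq2 called 6 higher and 1 lower, against 29.1% of all genes in either direction. In EPN Sox9-GOF against HGG Sox9-GOF, 6 were called higher and 3 lower (Pdgfra, Slc22a6 and Slc6a13), where 19.6% and 21.2% of all genes were. Col1a1, a collagen chain, had 20343, 13541 and 9499 rescaled counts in EPN Sox9-GOF, against 104.8, 105.7 and 126.3 in HGG Sox9-GOF, and 14457, 23475 and 12314 in EPN control, against 383.3, 1246 and 264.2 in HGG control. The summed count over 18 genes was 36373, 19993 and 25535 in EPN Sox9-GOF, against 5413, 11479 and 5331 in HGG Sox9-GOF. In the controls it was 28766, 37957 and 27459 in EPN, against 5415, 28616 and 4012 in HGG. Pdgfra, which oligodendrocyte precursors also express, was a part of the HGG sums, with 3506, 9401 and 2952 in HGG Sox9-GOF and 2695, 7184 and 1169 in HGG control. The part of fibroblasts in the EPN level of Pdgfrb was not tested. No gene of the pericyte, contractile, recruitment, endothelial and fibroblast lists passed limma or edgeR within either model. The same held between HGG Sox9-GOF and the libraries labelled Sox9-LOF. In each list and comparison, 0 to 8 genes had an unadjusted limma p under 0.05 and DESeq2 called 0 to 4. The 8 were endothelial genes, all lower in EPN Sox9-GOF, where 10.7% of all tested genes were lower at that p. In either direction, 15.1% of all tested genes were at that p in EPN Sox9-GOF and 22.7% in HGG Sox9-GOF. The share was 17.3% with the Sox9-LOF label and 7.41% between HGG Sox9-GOF and that label. DESeq2 called 5.77%, 15%, 9.01% and 0.935% of all genes, in the same order.

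Last, the 9 genes were compared with each other by the deviation of each library from its group mean on the log2 scale. Rgs5, Abcc9, Higd1b and Vtn deviated together, with a Pearson r over 15 libraries of 0.87 for Rgs5 and Higd1b, 0.79 for Abcc9 and Higd1b and 0.77 for Rgs5 and Abcc9. Pdgfrb had r of -0.01 to Rgs5, -0.02 to Abcc9, 0.23 to Higd1b and 0.49 to Vtn. Acta2 deviated with Anpep (0.69) and Tagln (0.68), and against Rgs5 (-0.54). Myh11 had r of -0.001 to Acta2 and -0.03 to Tagln, and its highest was 0.62 to Vtn. Of the 3 pairs among smooth muscle genes 1 was positive (median -0.001). Of the 15 pairs among pericyte genes 10 were positive (median 0.23), and of the 18 pairs between a pericyte and a smooth muscle gene 8 were (median -0.16). Among 15109 genes, the one whose deviations were most like those of Pdgfrb was Lrp12 (r = 0.94), for Rgs5 it was Mpv17 (r = 0.95) and for Anpep Pilrb1 (r = 0.98). These values describe 15 libraries that share tissue content and scaling, and the best of so many genes is high by selection.

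**Figure D5:**
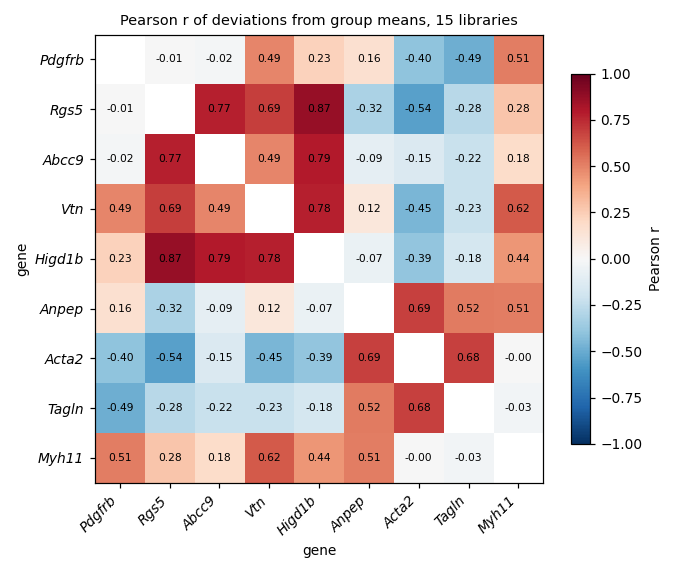
Pearson r between the 9 genes, from deviations of log2 levels from the group mean over 15 libraries; red cells are positive and blue cells negative. Rgs5, Abcc9, Vtn and Higd1b form a positive block of 0.49 to 0.87, with Pdgfrb at -0.01 to Rgs5 and 0.49 to Vtn, and Acta2 at -0.54 to Rgs5.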

How the data were processed

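RNA of 15 mouse brain tumour libraries was sequenced as stranded poly(A) libraries from 300 ng of total RNA, per the labels' protocols. The submitters' processing notes name STAR 2.5.0a, FastQC 0.11.7, MultiQC 1.11, DESeq2 1.30.1 and build mm10. Which tool counted reads per gene, with which strand setting and gene models, is not given in these sources. The authors deposited 3 tables of 6 libraries with a normalized signal per gene, namely counts divided by a size factor, as the values show: 100% were whole multiples of 1 read within 0.001 read. Libraries were grouped by their titles.

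Recovered reads of the 15 libraries were rescaled together by the median of ratios (rescaled counts). As main test, limma 3.58.1 with trended variance (R 4.3.3) was run on log2(value + 1). Genes needed a mean of 10 or more, which all 9 reached in every comparison. P-values were Benjamini-Hochberg adjusted over all tested genes, and 0.05 or less was called. The log2 fold changes carry the pseudocount and understate the change of low genes. A count test had been planned, but the values are normalized, so edgeR 4.0.16 (quasi-likelihood) and DESeq2 1.42.0 on the recovered reads served as alternatives, beside a pseudocount of 8, no minimum mean, TMM scaling, a spread shared by 15 libraries, the replicate number as a block, and leaving out each library. Comparisons within a table used the deposited scale, those across tables the rescaled counts. Both HGG comparisons with control share the same 3 control libraries. The genes named are the 9 members, Sox9, the ligands Pdgfb and Pdgfd, and called genes of the lists. Members and lists were chosen with earlier results of these data known. Gene coordinates are from GENCODE M21 (GRCm38, identical to mm10).

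To check whether replicate numbers pair samples, deviations from the group mean were correlated between libraries with the same number. For HGG Sox9-GOF and HGG control these were 0.178, 0.443 and 0.224, so the numbers may pair those libraries. In the other comparisons at least 1 pair was at or below 0.1.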

Additional observations from a re-analysis of the deposited data

Results flagged for a closer look

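The difference between the Sox9-GOF effects in the 2 models, EPN minus HGG, passed limma (contrast of 4 group means, adjusted p of at most 0.05) for Rgs5 at -3.30 on the log2 scale (SE 0.70, adjusted p = 0.0269), with all 3 EPN Sox9-GOF libraries below and all 3 HGG Sox9-GOF libraries above every control of their model. Groups did not overlap, in either direction, for 21.1% of all tested genes in EPN and 30.7% in HGG. For Sox9 itself the difference of effects was -1.39 (SE 0.26, limma adjusted p = 0.0215), since Sox9 was 2.05-fold its control in EPN and 5.28-fold in HGG. For 2 of the 20 recruitment genes, Tgfbr1 and Angpt1, it was -1.81 and -2.80, while 10 of the 20 were positive.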

How the results depend on the processing

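The calls of Pdgfrb between the models held under every alternative listed in the methods and without each single library. So did the direction of Rgs5 in its 6 comparisons other than EPN Sox9-GOF against HGG Sox9-GOF. Counts of called genes depended on the test. DESeq2 called 1339 genes for the Sox9-LOF label, 2260 for HGG Sox9-GOF, 842 for EPN Sox9-GOF, 4393 between the controls, 139 between HGG Sox9-GOF and the Sox9-LOF label and 2468 for the difference of Sox9-GOF effects. With the spread shared by 15 libraries these were 1086, 2234, 130, 4176, 1 and 1514, and with limma as reported 0, 0, 0, 2317, 0 and 920. With the replicate number as a block, 1142 genes were called between the controls. For HGG Sox9-GOF against control, where the numbers may pair libraries, the block gave Rgs5 an adjusted p of 0.117, and it changed no call of the 9 genes in any comparison. Leaving out 1 library gave 0 to 6 genes for the Sox9-LOF label, 0 to 5 for EPN Sox9-GOF, 368 to 3633 between the controls, 0 to 2 between HGG Sox9-GOF and the Sox9-LOF label and 44 to 2135 for the difference of effects. It gave Rgs5 2.47 to 3.34 and Abcc9 2.12 to 2.73 between the controls, and Rgs5 -3.78 to -2.80 for the difference of effects. The cause was not tested.

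The signs of some uncalled genes turned. For the Sox9-LOF label, Acta2 (0.01) was -0.029 with a pseudocount of 8, -0.022 with TMM, -0.53 by edgeR and -0.49 by DESeq2. For HGG Sox9-GOF, Higd1b was -0.0028 by DESeq2 and Myh11 0.0092 with TMM. For EPN Sox9-GOF, Anpep was -0.11 by edgeR and -0.067 by DESeq2. Between the Sox9-GOF groups Myh11 was 0.018 with a pseudocount of 8, 0.13 by edgeR and 0.11 by DESeq2, and between HGG Sox9-GOF and the Sox9-LOF label -0.0096 by edgeR and -0.032 by DESeq2. Without 1 library, signs also turned within these ranges. For the Sox9-LOF label they were Vtn -1.04 to 0.37, Acta2 -0.80 to 0.90 and Myh11 -1.03 to 0.38. For HGG Sox9-GOF they were Pdgfrb -0.46 to 0.064, Vtn -1.09 to 0.31, Higd1b -0.48 to 0.64, Anpep -2.33 to 0.23 and Myh11 -0.44 to 0.41, and for EPN Sox9-GOF Anpep -0.68 to 0.59. Between the controls they were Vtn -0.77 to 0.63 and Acta2 -0.0086 to 1.70. Between the Sox9-GOF groups they were Rgs5 -0.84 to 0.14, Higd1b -0.24 to 1.37, Anpep -0.60 to 0.38, Acta2 -0.65 to 0.22 and Myh11 -0.43 to 0.44. Between HGG Sox9-GOF and the Sox9-LOF label they were Pdgfrb -0.21 to 0.27, Abcc9 -0.35 to 0.21, Vtn -0.49 to 0.14 and Myh11 -0.43 to 1.01. For the difference of effects they were Pdgfrb -0.28 to 0.26 and Anpep -0.14 to 2.42.

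The log2 difference of the pericyte to endothelial ratio was 0.57 between the controls, -0.77 over Cdh5 alone and -1.07 without Pdgfrb. Between the Sox9-GOF groups it was 1.01, against 0.21 over Pecam1, -0.68 over Cdh5 and -1.26 without Pdgfrb. In EPN Sox9-GOF against EPN control it was 0.27, and -0.41 without Pdgfrb. For smooth muscle genes it was -0.37 between the controls and -1.70 over Cdh5, and between the Sox9-GOF groups -1.48, -2.28 over Pecam1 and -3.17 over Cdh5. Higd1b and Myh11 were limited by depth, with as few as 4 and 3 reads.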
